A study of Mus musculus with 4 samples.

Results

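The genes described here are 32 enzymes and regulators of cholesterol and fatty acid synthesis, chosen by name, and all 32 were present among the 32285 genes of the deposited count matrix. They comprise 6 genes of the mevalonate pathway, 10 that turn its product into cholesterol, 3 regulators, 3 genes of fatty acid synthesis, 6 desaturases and elongases, and 4 genes of fatty acid activation and phospholipid synthesis. The samples were mouse alveolospheres, 3-dimensional co-cultures of alveolar type 2 (AT2) cells, the surfactant-secreting cells of the alveolus, with PDGFRa+ lung fibroblasts. In the control group both cell types were wildtype. In the other group wildtype AT2 cells were grown with fibroblasts carrying a PDGFRa-specific knockdown (KD) of the transcriptional co-activators YAP and TAZ, and both groups received doxycycline at 3 µg/ml from day 7 to day 14, so that the agent that induces the knockdown was also in the control medium. Each group had 2 libraries, all with 1 batch label. The labels call them biological replicates without saying whether they came from separate animals, so the p-values cover the spread between libraries only, part of which may be technical. The labels as read here name no age or strain of the mice.

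Cholesterol is made from acetyl units through the mevalonate pathway, then squalene, lanosterol and a series of sterol intermediates. Fatty acids are made from the same units by acetyl-CoA carboxylase and fatty acid synthase, and are then elongated, desaturated and built into phospholipids. Both routes are driven by the SREBP transcription factors, SREBP-1 mainly for fatty acids and SREBP-2 mainly for sterols, which the protein Insig1 holds back when sterols are plentiful. AT2 cells are known for a high rate of lipid synthesis, because pulmonary surfactant is mostly phosphatidylcholine with saturated acyl chains, together with cholesterol.

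SREBPs bind sterol response elements close to gene starts, usually beside sites for NF-Y, whose core is CCAAT, and for Sp1, whose core is GGGCGG. RefSeq promoters of GRCm38.p6 were available for 26 of the 32 genes. The 250 bases before the start were searched on both strands. The sterol response element core TCACNCCAC occurred in 2 of the 26 genes, Hmgcs1 and Pcyt1a, against 1.22% of all 27025 genes of the table. CCAAT occurred in 20 of 26 against 37.5% of all genes, and GGGCGG in 22 of 26 against 35.4%. These shares are over all genes of the table, with no filter for expression in these cells, and a share over expressed genes was not counted. The 3 motifs do not overlap each other in their letters, and a match describes the letters of the window, not a bound site. Windows around 5 of these matches are shown, for the 2 genes with the sterol response element core and for 3 genes on which the results below turn, Fasn, Elovl1 and Gpam. They read 5′ to 3′ along the gene's own strand, with the motif in capitals; ATTGG is CCAAT read on the other strand.
Hmgcs1 (chr13:119690198-119690238, plus strand): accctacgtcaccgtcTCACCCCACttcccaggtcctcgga
Pcyt1a (chr16:32430789-32430829, plus strand): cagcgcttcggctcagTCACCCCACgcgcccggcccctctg
Fasn (chr11:120824582-120824626, minus strand): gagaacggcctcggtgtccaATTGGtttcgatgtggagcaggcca
Elovl1 (chr4:118428038-118428082, plus strand): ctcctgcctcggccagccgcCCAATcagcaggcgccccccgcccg
Gpam (chr19:55127288-55127332, minus strand): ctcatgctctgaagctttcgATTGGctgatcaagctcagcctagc

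The 4 libraries held 6508 to 15000 cells and 44284602 to 71523447 unique molecular identifiers (UMIs, one per captured RNA molecule). Median depth was 3875.5 and 4142 UMIs per cell in the controls against 4961 and 5946 in the knockdowns, and the median mitochondrial share ranged from 17.8% to 24.6%. Of 44852 distinct cell barcodes, 1073 occurred in more than 1 library. Counts were summed per library over deposited cell classes and are given as CPM, the UMIs of a gene scaled to 1000000 UMIs of its sum, with TMM normalisation. Of the deposited AT2 class, cluster 9 (227 to 892 cells per library) carried the 10 AT2 markers at a summed 78041 to 114843 CPM. Cluster 14 (249 to 437 cells) carried them at 10862 to 23272 CPM, with more of the 10 AT1 markers (2622 to 4331 CPM, against 1478 to 2349 in cluster 9). The clusters were therefore kept apart, and AT2 below means cluster 9; "fibroblasts" means the sum of all deposited fibroblast, smooth muscle, EMT-like and unknown mesenchymal classes (5123 to 12041 cells per library). This sum was made of different cells in the 2 groups. Smooth muscle cells numbered 724 and 753 in the controls against 48 and 5 in the knockdowns, Wnt4+ fibroblasts 7 and 32 against 1362 and 971, and Tgfbi+ fibroblasts 5 and 38 against 931 and 404. Inside the class deposited as Fibroblasts, cluster 0 held 2412 and 2035 cells against 66 and 23, and cluster 5 held 7 and 76 against 1393 and 1149. A change in the fibroblast sum and a change in its makeup can therefore not be told apart from the sum alone. The knocked-down gene Yap1 read 61.3 and 64.9 CPM in control and 40.9 and 36.4 CPM in knockdown fibroblasts (log2 fold change -0.71 ± 0.11 SE, edgeR adjusted p = 0.00864, and 0.0559 without knockdown library 2), and Wwtr1, which encodes TAZ, read 239 and 231 against 194 and 172 CPM (-0.36 ± 0.13, adjusted p = 0.115). Both genes also read lower in the knockdown libraries in AT2 cluster 9, whose cells the labels call wildtype. Summed fibroblast marker RNA in that cluster was lower in these libraries too, and its part in both genes' levels was not tested. In cluster 9 Wwtr1 read 242 and 196 against 182 and 119 CPM (-0.52 ± 0.20, adjusted p = 0.397). Yap1 read 90.9 and 86.0 against 72.0 and 69.3 CPM (-0.32 ± 0.19, adjusted p = 0.720). Neither passed, but without knockdown library 1 Wwtr1 did (-0.87, adjusted p = 0.00750).

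Of the 32 genes, 4 that build, shape or place fatty acyl chains (Lpcat1, Scd1, Elovl1 and Fasn) stood furthest above the fibroblasts of the same library in AT2 cells. As groups, the mevalonate genes read higher in AT2 cells by a median of 2.76-fold, the genes from squalene to cholesterol by 1.48-fold, the desaturases and elongases by 1.62-fold and the genes of activation and phospholipid synthesis by 3.43-fold. In cluster 9, 14 of the 32 genes read at least 2-fold higher than in fibroblasts in 4 of 4 libraries, where 11.5% of 15487 genes did so. Another 2 read at least 2-fold lower in 4 of 4, where 16.5% of all genes did. Over the 32 genes the median log2 ratio of AT2 to fibroblast level was 1.06, beside 0.06 over all genes. Of the 32, 26 read higher in every library, where 37.9% of the 13510 genes counted in every sum did. Because the classes come from clustering the same cells, these ratios are a description with no test.

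**Figure D1:**
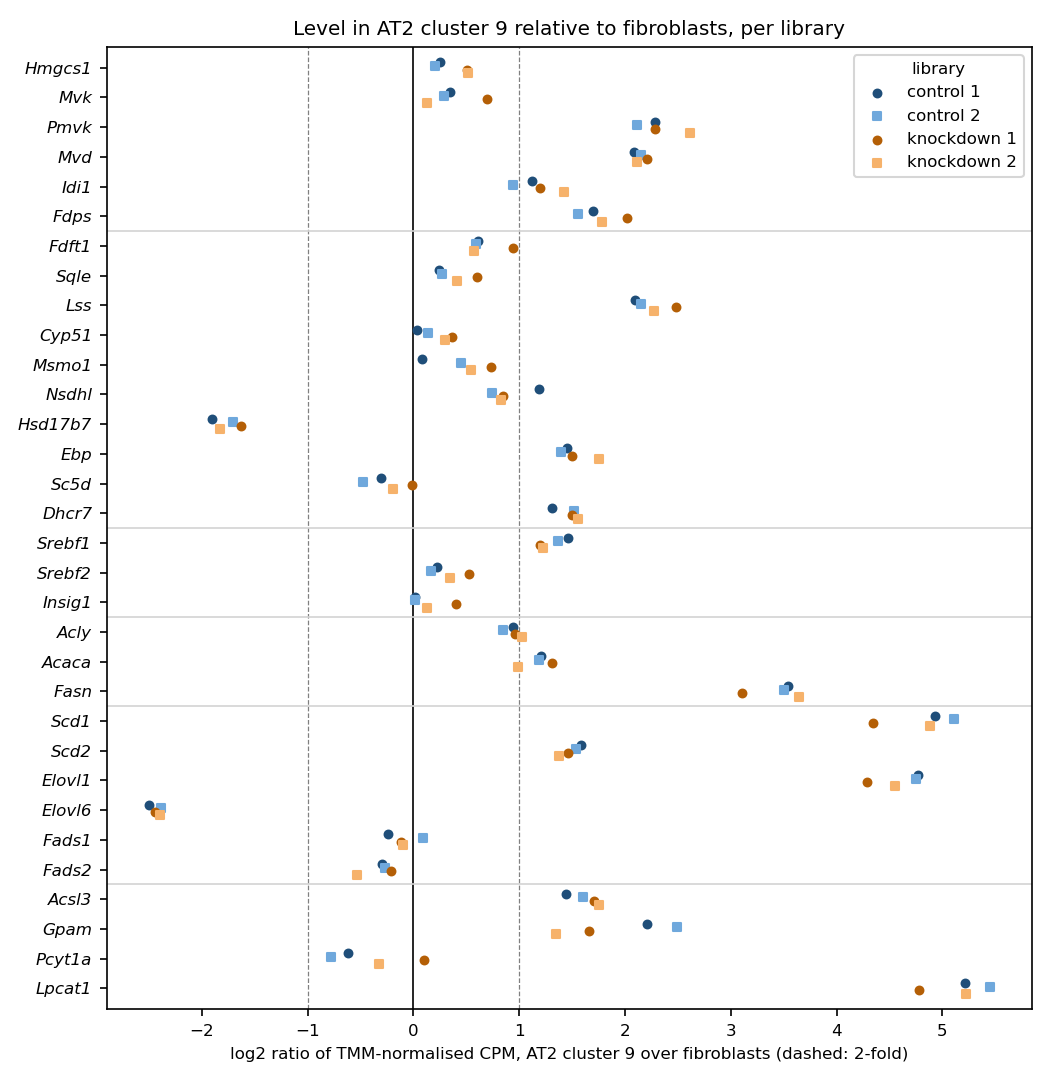
Log2 ratio of the level in AT2 cluster 9 to that in all fibroblast classes inside each library, for the 32 genes in the order of their roles (grey lines part the roles); each point is 1 library and the dashed lines mark 2-fold. Lpcat1, Scd1, Elovl1 and Fasn lie far to the right, Elovl6 and Hsd17b7 lie to the left, and 6 of the 10 genes from squalene to cholesterol lie on average within 2-fold of equality.

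Of the fatty acid synthesis genes, Fasn, the multi-domain synthase that builds palmitate, read 1006 and 1018 CPM in control and 895 and 1052 CPM in knockdown AT2 cells. In the fibroblasts of the same libraries it read 86.5, 89.5, 104 and 83.9 CPM, a mean ratio of 10.9-fold, and the ranges lay far apart. Acaca, the carboxylase that makes its malonyl-CoA substrate, and Acly, which supplies cytosolic acetyl-CoA, were higher by only 2.25-fold and 1.93-fold on average. Both missed 2-fold in at least 1 library.

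Of the desaturases and elongases, Scd1, which puts the first double bond into saturated chains, read 6059, 7144, 5853 and 6508 CPM in AT2 cells (control 1, control 2, knockdown 1, knockdown 2) and 198, 207, 288 and 221 CPM in fibroblasts. The mean ratio was 28.2-fold. Scd2, its paralog, was higher by only 2.81-fold, from 1041, 1149, 999 and 1013 CPM in AT2 cells to 346, 396, 362 and 391 CPM in fibroblasts. Scd1 and Scd2 are close paralogs, so both values are uncertain to the extent that reads fitting both genes were split, a step that the sources used here do not describe.

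The 2 elongases of the list stood on opposite sides. Elovl1, which lengthens long saturated and monounsaturated chains, read 1476, 2068, 1725 and 1905 CPM in AT2 cells against 54.1, 76.7, 88.4 and 81.4 CPM in fibroblasts, 24.1-fold higher. Elovl6, which takes palmitate to stearate, read 14.1, 18.6, 14.8 and 16.8 CPM in AT2 cells against 79.7, 97.3, 80.8 and 88.4 CPM in fibroblasts, a level 5.39-fold higher in the fibroblasts. The desaturases of polyunsaturated chains, Fads1 and Fads2, were near equal, with mean log2 ratios of -0.09 and -0.32.

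Of the genes of activation and phospholipid synthesis, Lpcat1 had the largest ratio of all 32. It encodes the acyltransferase that remodels lysophosphatidylcholine into the saturated phosphatidylcholine of surfactant. It read 1070, 1280, 1148 and 1158 CPM in AT2 cells and 28.9, 29.3, 41.9 and 31.1 CPM in fibroblasts, a mean of 35.9-fold. Gpam, the mitochondrial acyltransferase that starts glycerolipid synthesis, read 102, 125, 95.7 and 65.4 CPM against 22.1, 22.2, 30.2 and 25.7 CPM, 3.81-fold higher. Its 4 log2 ratios had an SD of 0.52, the widest of the 32, and both knockdown libraries lay below both controls. Acsl3, which activates fatty acids to acyl-CoA, read 98.6, 106, 104 and 91.3 CPM against 36.3, 35, 31.8 and 27.0 CPM, 3.09-fold higher. Pcyt1a, the rate-limiting step of phosphatidylcholine synthesis, was on average lower in AT2 cells (log2 -0.40), with 1 of the 4 libraries the other way.

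In the mevalonate pathway, Pmvk, Mvd and Fdps stood apart and the other 3 genes did not. Pmvk, the phosphomevalonate kinase, read 170, 165, 161 and 197 CPM in AT2 cells and 34.7, 38.1, 33.2 and 32 CPM in fibroblasts, 5.01-fold higher. Mvd, the decarboxylase that follows it, read 59.8, 70.0, 65.8 and 66.0 CPM against 14.1, 15.8, 14.2 and 15.3 CPM, 4.41-fold higher. Fdps, which makes farnesyl diphosphate, read 305, 387, 410 and 445 CPM against 94.2, 131, 101 and 130 CPM, 3.40-fold higher. Hmgcs1, the synthase that makes HMG-CoA, and Mvk, the mevalonate kinase, were higher by only 1.29-fold each, and the isomerase Idi1 by 2.25-fold with control 2 under 2-fold.

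Among the 10 genes from squalene to cholesterol, 3 stood 2-fold higher and 1 stood 2-fold lower. Lss, which closes squalene epoxide into lanosterol, read 50.1, 49.3, 65.4 and 62.8 CPM in AT2 cells and 11.7, 11.1, 11.7 and 13.0 CPM in fibroblasts, 4.76-fold higher. Ebp, the sterol isomerase, read 80.2, 114, 107 and 118 CPM against 29.4, 43.3, 37.8 and 35.2 CPM, 2.88-fold higher. Dhcr7, the last reductase of the pathway, read 35.5, 51.3, 50.2 and 55.7 CPM against 14.3, 17.9, 17.7 and 18.9 CPM, 2.77-fold higher. Hsd17b7, the 3-ketosteroid reductase, read 15.6, 15.6, 20.1 and 18.8 CPM in AT2 cells and 58.1, 51.0, 62.2 and 66.8 CPM in fibroblasts, a level 3.40-fold higher in the fibroblasts. The others lay within 2-fold on average: Cyp51 (1.16-fold), Sqle (1.30-fold), Msmo1 (1.37-fold), Fdft1 (1.60-fold) and Nsdhl (1.87-fold) were higher in AT2 cells, and Sc5d was 1.19-fold higher in fibroblasts.

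Of the regulators, 1 stood apart. Srebf1, which encodes SREBP-1, read 106, 119, 121 and 128 CPM in AT2 cells against 38.5, 46.2, 52.7 and 55.0 CPM in fibroblasts, 2.48-fold higher. Srebf2, which encodes SREBP-2, was 1.24-fold higher and Insig1 1.10-fold higher. Across the 48 sums of 12 classes in 4 libraries, the genes whose log2 CPM followed Srebf1 most closely were Fasn, Elovl1 and Fdps (Pearson r of 0.91, 0.90 and 0.89). Those closest to Srebf2 were Hmgcs1, Msmo1 and Cyp51 (0.84, 0.81 and 0.81). The sums share libraries, depth and any free RNA, so these values describe the order of classes and carry no p.

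AT2 marker RNA was also counted in fibroblast droplets. The 10 AT2 markers summed to 928 and 993 CPM in control and 2776 and 1349 CPM in knockdown fibroblasts, or 1.19%, 0.897%, 2.83% and 1.17% of their level in cluster 9. The same share of the AT2 level would make up over 20% of the fibroblast level in at least 1 library for 4 of the 32 genes. For Lpcat1 it was 44.0%, 39.2%, 77.6% and 43.8%, for Scd1 36.3%, 31.0%, 57.6% and 34.6%, for Elovl1 32.4%, 24.2%, 55.3% and 27.5%, and for Fasn 13.8%, 10.2%, 24.4% and 14.7%. For the other 28 the highest share was 15.8%, in Lss. The AT2 to fibroblast ratios of the first 4 genes are thus lower than they would be with that share taken off. Fibroblast marker RNA was likewise counted in cluster 9. The 8 fibroblast markers summed there to 1586, 1442, 1228 and 823 CPM (control 1, control 2, knockdown 1, knockdown 2). Their sums in fibroblasts were 11473, 14236, 11494 and 10861 CPM. The part of this RNA in the AT2 levels was not tested. This limit applies to Elovl6 and Hsd17b7, which read higher in fibroblasts.

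Within the epithelium the lipid genes formed a descending series, from cluster 9 through cluster 14 to the class deposited as transitional epithelial cells. Cycling AT2 cells (164 to 472 per library) stayed close to cluster 9: 1 of 32 genes, Elovl1, was at least 2-fold lower there in 4 of 4 libraries, beside 0.248% of 10498 genes, and 0 were 2-fold higher (3.17% of all genes). Cluster 14 had 12 of 32 genes at least 2-fold lower than cluster 9 in 4 of 4 libraries, beside 2.96% of 10713 genes, and 1, Hsd17b7, at least 2-fold higher (3.06%). In transitional cells (592 to 1032 per library) 27 of 32 were at least 2-fold lower than in cluster 9 in 4 of 4, beside 8.31% of 11774 genes, and 0 were 2-fold higher (6.56%). The median log2 ratio to cluster 9 over the 32 genes was -0.07 in cycling AT2 cells, -0.97 in cluster 14 and -2.26 in transitional cells, while over all genes it stayed between -0.01 and 0.03.

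**Figure D2:**
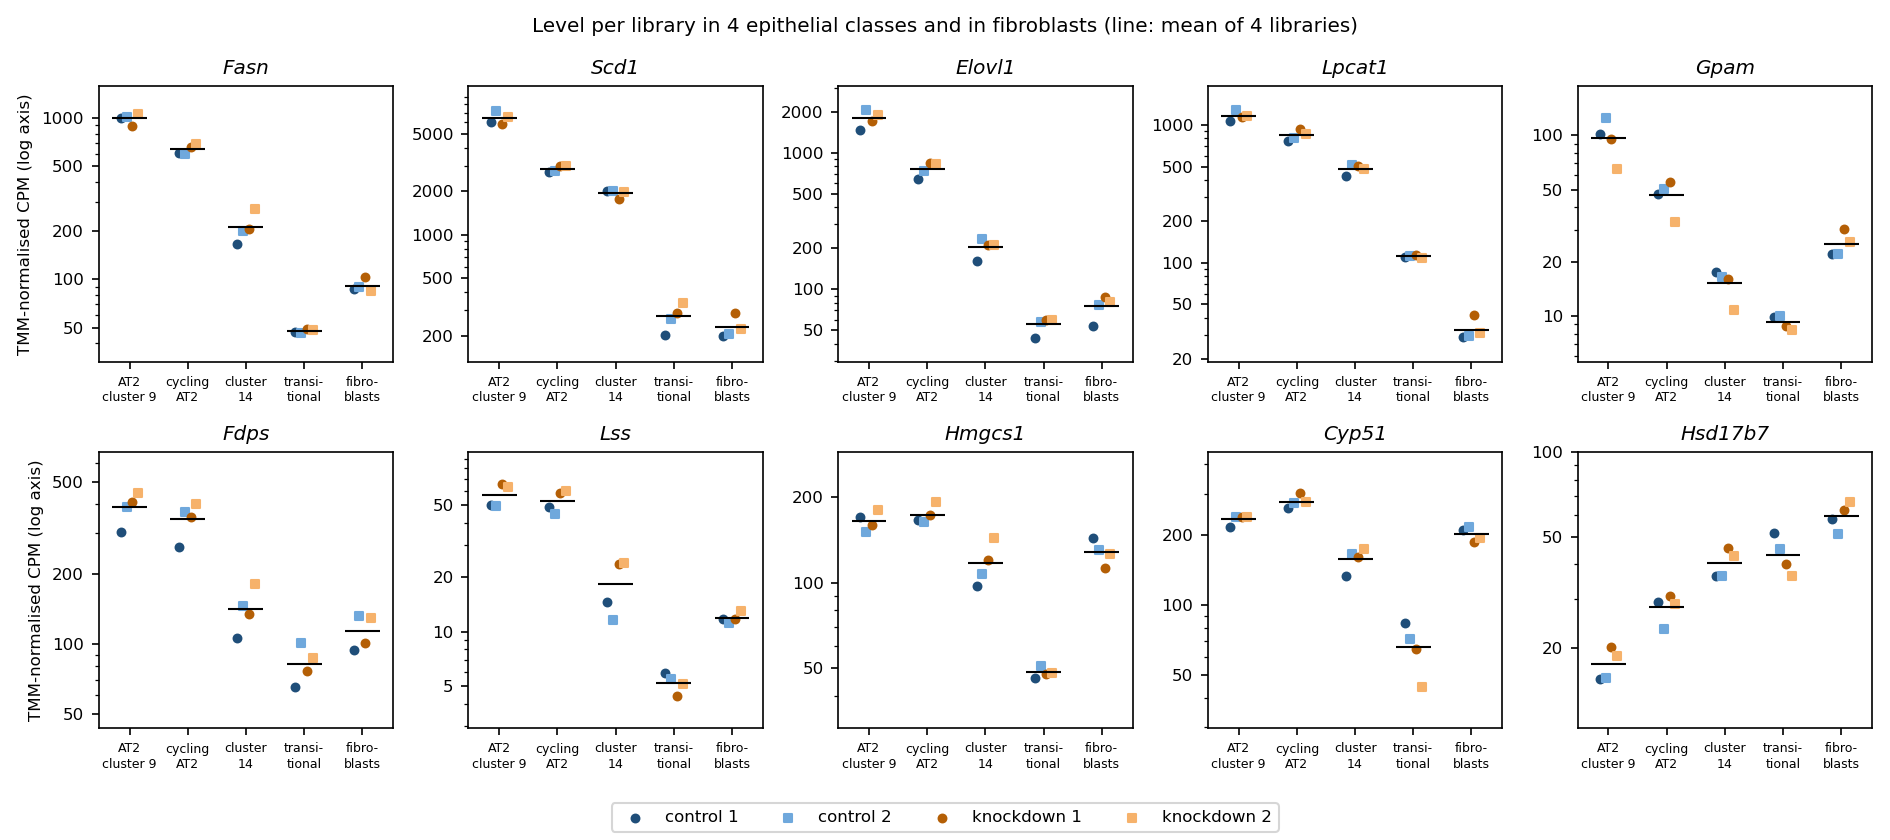
TMM-normalised CPM (log axis) of 10 of the genes in each library for 4 epithelial classes and the fibroblasts; lines are means of the 4 libraries. Fasn, Scd1, Elovl1 and Lpcat1 step down from cluster 9 to transitional cells with no overlap between neighbours, Hmgcs1 and Cyp51 are low mainly in transitional cells, and Hsd17b7 runs the other way.

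Fasn read 895 to 1052 CPM in cluster 9, 601 to 690 in cycling AT2 cells, 165 to 272 in cluster 14 and 46.2 to 49.2 in transitional cells. Scd1 read 5853 to 7144, 2713 to 2987, 1760 to 2025 and 203 to 338 CPM in the same order. Elovl1 read 1476 to 2068, 650 to 847, 163 to 236 and 44.3 to 60.1 CPM. Lpcat1 read 1070 to 1280, 763 to 934, 425 to 517 and 109 to 115 CPM. For these 4 genes, named as the furthest above fibroblasts, the ranges over the 4 libraries did not overlap between neighbouring classes. The share of all genes with such ranges was not counted. Of the 32 genes, 15 read lower in cycling AT2 cells than in cluster 9 in 4 of 4 libraries and 10 read higher. Of all genes, 23.2% read lower and 23.2% higher. Hmgcs1 and Cyp51 overlapped between cluster 9 and cycling AT2 cells or lay slightly higher in the latter (Hmgcs1 151 to 180 and 164 to 192 CPM; Cyp51 215 to 239 and 261 to 300 CPM), and in transitional cells they read 46.4 to 51.1 CPM and 44.6 to 83.5 CPM.

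Transitional cells were the lowest of the 12 classes in 28 of the 32 genes by the mean of 4 libraries, and the lowest epithelial class in every library for 30. The share of all genes with these orders was not counted. Against cluster 9, 31 of 32 read lower in 4 of 4 libraries, where 32.5% of all genes did. Against fibroblasts 29 did, beside 39.6% of all genes. By the 2-fold mark, 14 of 32 genes were lower than in fibroblasts in 4 of 4 libraries, beside 18.2% of 15517 genes. Another 2, Lpcat1 and Acsl3, were at least 2-fold higher (11.7%). The 14 included sterol genes that hardly parted AT2 cells from fibroblasts, such as Hmgcs1 (2.64-fold lower), Cyp51 (3.12-fold), Sqle (3.80-fold) and Insig1 (6.72-fold), and the polyunsaturated desaturases Fads1 (9.46-fold) and Fads2 (5.42-fold). Insig1 read 14.6 to 20.4 CPM in transitional cells against 109 to 129 CPM in fibroblasts. The 4 pan-epithelial markers summed to 3612 to 5396 CPM in transitional cells, against 1512 to 1706 CPM in cluster 9, while their AT2 markers were at 869 to 1979 CPM, close to the level in fibroblast droplets. Their 8 fibroblast markers summed to 4282 to 5043 CPM, against 823 to 1586 CPM in cluster 9 and 10861 to 14236 CPM in fibroblasts, and the part of this RNA in the transitional levels was not tested.

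**Figure D3:**
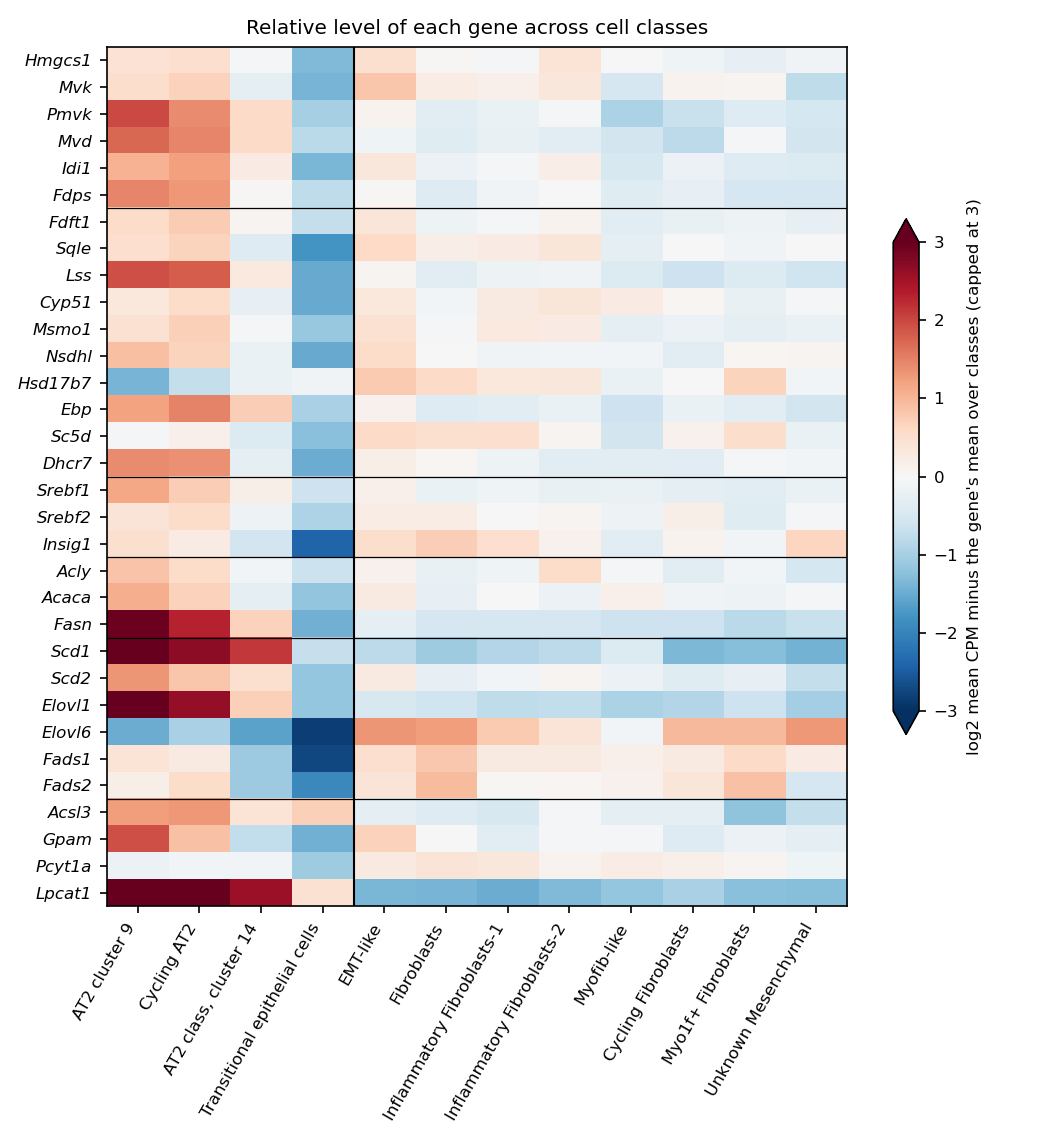
Heat map of the log2 mean CPM of each gene in 12 cell classes, relative to that gene's mean over the classes; red is higher and blue lower, with colours capped at 3. The first 4 columns are epithelial: Fasn, Scd1, Elovl1 and Lpcat1 are red in cluster 9 and cycling AT2 cells, Elovl6 is blue in cluster 9, and the transitional column is blue for nearly all genes.

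Among the 8 fibroblast classes with at least 50 cells per library the genes varied less: the highest class mean was 1.40 to 2.98 times the lowest, with a median of 1.69. The class deposited as EMT-like had the highest mean for 21 of the 32 genes, and for 7 of them it was the highest in every library (Mvk, Fdft1, Sqle, Srebf1, Acaca, Fasn and Scd2). How many of all genes had this order was not counted. Against the class deposited simply as Fibroblasts, 24 of 32 genes were higher in EMT-like cells in 4 of 4 libraries, where 22.1% of all genes were, with a median log2 ratio of 0.35, but 0 of 32 reached 2-fold in either direction in 4 of 4 (1.99% of 13915 genes did so higher and 0.985% lower). Mvk showed the widest range, from 14.7 CPM in unknown mesenchymal cells to 43.8 CPM in EMT-like cells. Fads1 and Fads2 were highest in the Fibroblasts class, in 4 and 3 of 4 libraries.

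In the fibroblast sum, whose makeup differed between the groups as given above, none of the 32 lipid genes passed the test. Of 17481 genes tested with edgeR's quasi-likelihood test, 10.6% were called at an adjusted p under 0.05, 4.42% higher and 6.22% lower in the knockdown. Of the 32 members 0 were called, by edgeR or by DESeq2, and 6 had an unadjusted p under 0.05, while 28.5% of all genes did. The median log2 fold change was 0.03, beside 0.01 over all genes, with 19 members positive and 13 negative. Of the 16 mevalonate and sterol genes 9 were positive, with a median of 0.00. The sign of these medians turned with single libraries: over the 16 genes it was -0.14 with 5 positive without control library 1, -0.11 with 6 positive without knockdown library 2, and 0.12 with 10 positive without control library 2. Over the 32 genes it was -0.08, -0.05 and 0.14. The 95% confidence intervals of the 32 changes lay between -0.52 and 0.79, so a change of 2-fold in either direction lay outside each of them.

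**Figure D4:**
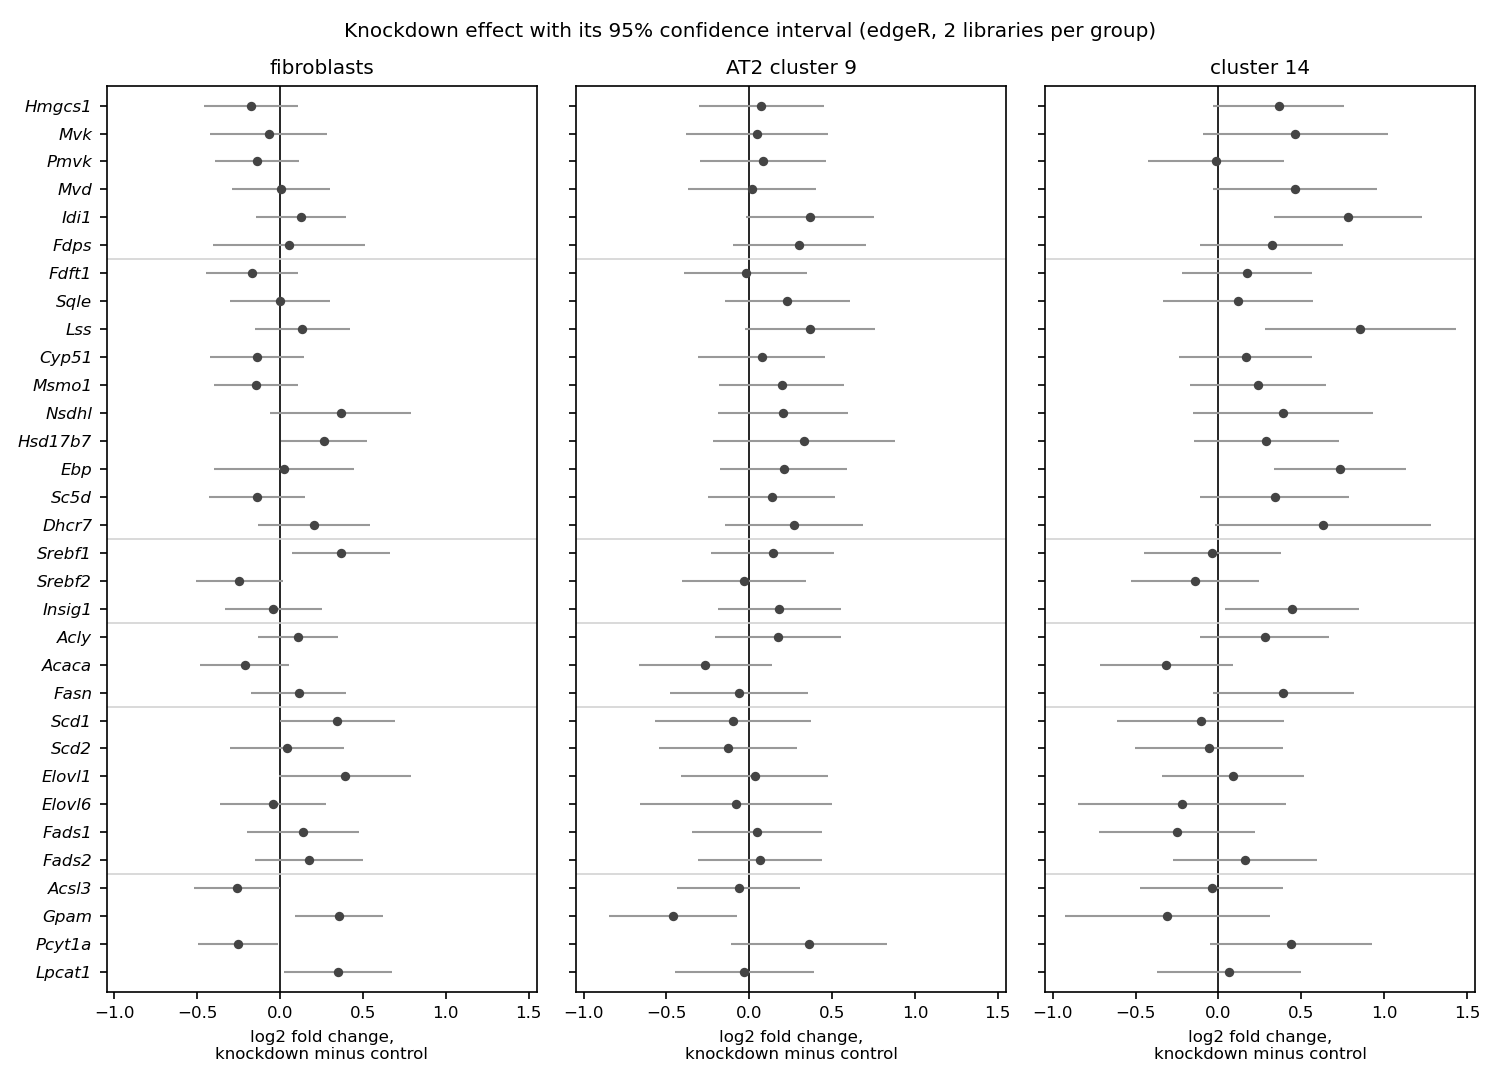
Log2 fold change of the 32 genes, knockdown minus control, with its 95% confidence interval from edgeR, in fibroblasts, AT2 cluster 9 and cluster 14. In fibroblasts the values scatter around 0; in clusters 9 and 14 most points of the upper blocks, the mevalonate and sterol genes, lie right of 0, and Gpam lies left of 0 in the epithelium and right of it in fibroblasts.

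Gpam had the smallest adjusted p in fibroblasts. It read 19.9 and 20.6 CPM in the controls against 27.6 and 24.3 CPM in the knockdowns (log2 0.36 ± 0.11, adjusted p = 0.0873). Srebf1 followed, with 34.7 and 42.9 against 48.2 and 51.9 CPM (0.37 ± 0.13, adjusted p = 0.109). For Lpcat1 (26 and 27.2 against 38.3 and 29.3 CPM, adjusted p = 0.155) and Hsd17b7 (52.4 and 47.4 against 56.9 and 63.0 CPM, adjusted p = 0.167) the knockdowns were also higher without passing. Pcyt1a (35.5 and 33.7 against 28.2 and 29.9 CPM, adjusted p = 0.161) and Acsl3 (32.7 and 32.6 against 29.1 and 25.5 CPM, adjusted p = 0.175) read lower in both knockdowns.

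AT2 marker RNA was highest in the fibroblasts of knockdown library 1, and 5 of the 10 AT2 markers were called higher in the fibroblast sum. Scd1, Lpcat1, Elovl1 and Fasn also read highest in that library, while Scd2 and Fdps, likewise higher in AT2 cells, did not. The following values are on the scale of all class sums, as for the AT2 ratios. Scd1 read 198 and 207 CPM in control and 288 and 221 CPM in knockdown fibroblasts; with the AT2 marker share taken off, 126 and 143 CPM stood against 122 and 145 CPM. On that basis Lpcat1 stood at 16.2 and 17.8 CPM in the controls against 9.40 and 17.5 CPM in the knockdowns, and Elovl1 at 36.6 and 58.2 against 39.5 and 59.0 CPM. Gpam read 22.1 and 22.2 against 30.2 and 25.7 CPM before and 20.9 and 21.1 against 27.5 and 24.9 CPM after the share was taken off. Both knockdowns lay above both controls before and after. The part of AT2 RNA in the fibroblast changes was not tested. Other marker groups moved between these libraries as well. In fibroblasts, 6 airway secretory markers summed to 1477 and 324 CPM in the controls against 30.4 and 304 CPM in the knockdowns, with 0 called. The 2 proliferation markers summed to 97.7 and 105 against 47.0 and 56.2 CPM, and both were called lower. The 4 markers of lipid-storing fibroblasts summed to 533 and 713 against 820 and 855 CPM, with 0 called. Their part in the values of the lipid genes was not tested.

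Of 32 further genes of lipid metabolism, 3 rose and 2 fell in fibroblasts and 27 did not pass, with 5 called by DESeq2, beside the 10.6% of all genes called. Nr1h3, which encodes the oxysterol receptor LXR-alpha, rose from 7.69 and 7.72 CPM to 11.6 and 12.9 CPM (log2 0.66 ± 0.12, adjusted p = 0.0157). Tm7sf2, a sterol reductase, rose from 10.5 and 12.5 to 17.0 and 18.5 CPM (0.62 ± 0.13, adjusted p = 0.0235), and Chpt1, the cholinephosphotransferase that completes phosphatidylcholine, from 39.2 and 44.6 to 61.8 and 57.3 CPM (0.51 ± 0.11, adjusted p = 0.0302). Stard4, a sterol carrier, fell from 26 and 24.7 to 17.8 and 19.1 CPM (-0.46 ± 0.11, adjusted p = 0.0366), and Gpat3, a glycerol-phosphate acyltransferase of the endoplasmic reticulum, from 9.16 and 8.25 to 5.55 and 5.24 CPM (-0.69 ± 0.14, adjusted p = 0.0193). Without knockdown library 2, Nr1h3, Tm7sf2, Chpt1, Stard4 and Gpat3 lost their calls (adjusted p from 0.0795 to 0.117). Leaving out control library 1 (adjusted p = 0.0598 and 0.0734) or knockdown library 1 (0.174 and 0.144) also ended the calls of Stard4 and Chpt1. With cells of at most 20% mitochondrial UMIs, Nr1h3 (adjusted p = 0.0556), Tm7sf2 (0.101) and Stard4 (0.140) were not called. The part of the makeup of the fibroblast sum in these 5 changes was not tested.

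In AT2 cells, wildtype by their label in both groups, the question was whether the lipid genes changed with the state of the fibroblasts. Of 10737 genes tested in cluster 9, 0.922% were called. Of the 32 members 0 were called by edgeR or by DESeq2 and 1, Gpam, had an unadjusted p under 0.05, where 8.09% of all genes did. The intervals of the 32 changes lay between -0.85 and 0.88. The 4 genes that stood furthest above fibroblasts had estimates near 0: Scd1 (log2 -0.10 ± 0.23), Fasn (-0.06 ± 0.21), Lpcat1 (-0.03 ± 0.21) and Elovl1 (0.03 ± 0.22). Their adjusted p were 0.965 to 0.992. Over the 4 genes of activation and phospholipid synthesis, the estimates ran from -0.46 (Gpam) to 0.36 (Pcyt1a), without passing. None of the 28 other lipid genes that could be tested was called, by edgeR or by DESeq2, with 1 at an unadjusted p under 0.05.

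In clusters 9 and 14 and in cycling AT2 cells, but not in transitional cells, most mevalonate and sterol genes had a positive change, without any of them passing. In cluster 9, 15 of 16 had a positive change, with a median of 0.20, while 50.3% of all genes were positive. Idi1 was at 73.1 and 68.3 CPM in the controls against 79.8 and 106 CPM in the knockdowns (0.37 ± 0.19, adjusted p = 0.645), and Lss at 46.8 and 45.5 against 60.3 and 58.5 CPM (0.37 ± 0.20, adjusted p = 0.651). In cycling AT2 cells, where 1.34% of 10102 genes were called, 16 of 16 were positive with a median of 0.14 and 0 were called. Genes of 1 pathway vary together and all these sums come from the same 4 libraries, so the counts describe a direction and are not separate evidence.

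Cluster 14, the part of the AT2 class with more AT1 marker RNA, had the largest such lean. Here 0.51% of 10584 genes were called and 0 of 32 members, by edgeR or by DESeq2. Of the 16 mevalonate and sterol genes 15 were positive, with a median of 0.35, beside 52.8% of all genes and a median of 0.02. Ebp read 58.7 and 57.5 CPM in the controls against 102 and 90.6 CPM in the knockdowns (0.73 ± 0.19, adjusted p = 0.117). Idi1 read 31.7 and 44.5 against 61.1 and 70.0 CPM (0.78 ± 0.22, adjusted p = 0.142), and Lss 14.8 and 11.8 against 24.1 and 24.5 CPM (0.86 ± 0.28, adjusted p = 0.258). In these 3 genes, which had the largest estimates of the 16, both knockdown libraries lay above both controls. The share of all genes with this order was not counted. Insig1 read 52.1 and 57.5 against 77.4 and 71.1 CPM (0.44 ± 0.20, adjusted p = 0.50). It was the 1 positive of the 3 regulators, with 2 negative and a median of -0.04. The 6 desaturases and elongases had a median of -0.08.

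The marker content of cluster 14 moved with the same libraries. Its AT2 markers summed to 10862 and 17673 CPM in the controls against 19801 and 23272 CPM in the knockdowns, with 3 of 10 called higher, and its AT1 markers to 2622 and 4060 against 4331 and 3702 CPM, with 0 called. Their part in the lean of the sterol genes was not tested. Without control library 1 the number of positive genes was 13 of 16 and the median 0.21, the smallest over the alternatives run, and in cluster 9 it was 12 of 16 and 0.11, as it also was with cells of at most 20% mitochondrial UMIs. In transitional cells 5 of 16 were positive, with a median of -0.02, and 0 of 32 were called (0.304% of 12169 genes called).

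The difference between the AT2 and the fibroblast response was tested directly, by an interaction term in a fit that also held a term for each library. Of 16541 genes 2.26% were called. In this fit the spread between libraries was in effect pooled across genes, so its p-values do not reflect the spread of each gene's own libraries. Of the 32 members 1 was called, Gpam, whose change in cluster 9 lay 0.81 ± 0.17 below that in fibroblasts on the log2 scale (adjusted p = 0.000241). Gpam lies on chromosome 19, 55067268 to 55127238, minus strand (GRCm38), and its product, glycerol-3-phosphate acyltransferase 1, prefers saturated acyl chains. In cluster 9 it read 95.4 and 115 CPM in the controls against 88.3 and 60.9 CPM in the knockdowns (-0.46 ± 0.19, adjusted p = 0.481), against a change of 0.36 in fibroblasts. Both knockdown libraries were lower than both controls in AT2 cells and higher in fibroblasts, and neither change passed by itself. The log2 ratios of Gpam in cluster 9 to fibroblasts were 2.21 and 2.49 in the controls against 1.67 and 1.35 in the knockdowns. The part of the makeup of the fibroblast sum, which differed between the groups, was not tested. The same holds for the other differences given here. The difference was not called with DESeq2 (-0.84, adjusted p = 0.221), with cells of at most 20% mitochondrial UMIs (-0.54, adjusted p = 0.430) or without control library 2 (-0.65, adjusted p = 0.0639). Of the 16 mevalonate and sterol genes 0 were called for a difference and 15 were positive (median 0.22); without knockdown library 1, 11 were positive and the median was 0.03, while the median over all genes moved to -0.14. Of the 32 further lipid genes 1 was called for a difference, Chpt1, by -0.90 ± 0.17 (adjusted p = 2.35e-05). In cluster 9 Chpt1 read 148 and 113 CPM in the controls against 104 and 92.2 CPM in the knockdowns (-0.40 ± 0.19, adjusted p = 0.562), against the rise of 0.51 in fibroblasts. This difference was not called with DESeq2 (adjusted p = 0.148) or without control library 1 (-0.60, adjusted p = 0.112).

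Within single deposited classes 3 calls among the members arose. In EMT-like cells, where 6.24% of 13382 genes were called, Gpam rose from 25.3 and 27.0 CPM to 51.7 and 38.6 CPM (log2 0.80 ± 0.17, adjusted p = 0.00929; DESeq2 adjusted p = 0.0181). Without knockdown library 1 it did not pass (0.57, adjusted p = 0.110). The 10 AT2 markers summed to 961 and 1036 CPM in control and 2503 and 1348 CPM in knockdown EMT-like cells, with 7 called higher, and to 884 and 975 against 2760 and 1317 CPM in Myofib-like cells, with 8 called higher; their part in the calls of these classes was not tested. In Myofib-like cells, where 7.33% of 12695 genes were called, Hsd17b7 rose from 30.4 and 27.7 to 47.8 and 47.7 CPM (0.72 ± 0.16, adjusted p = 0.00904) and Elovl6 from 33.3 and 32.3 to 45.4 and 49.1 CPM (0.53 ± 0.16, adjusted p = 0.0496). Neither was called with DESeq2 (adjusted p = 0.0679 and 0.301), and the Elovl6 call was lost without any 1 of the 4 libraries (adjusted p from 0.0805 to 0.292). Gpam there read 18.7 and 18 against 30.5 and 25.9 CPM (0.62 ± 0.18, adjusted p = 0.0511). No member was called in the 8 other classes tested (31 of the 32 could be tested in Myo1f+ Fibroblasts), by edgeR or by DESeq2. The background in the 6 of them not yet named was 8.23% of all genes in the Fibroblasts class, 2.31% in cycling fibroblasts, 2.53% and 2.56% in the inflammatory classes 1 and 2, 2.48% in Myo1f+ Fibroblasts and 1.31% in unknown mesenchymal cells. Members with an unadjusted p under 0.05 numbered 1 to 6 in each of them, where 8.24% to 24.5% of all genes had one.

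The makeup of both classes also differed between the groups. EMT-like cells of cluster 25 held Gpam at 96.1 and 89.7 CPM (here UMIs over the total of the cluster, with no TMM factor) in the controls and 157 and 99.0 in the knockdowns, against 18.3 to 22.4 in cluster 1. Cluster 25 made up 5.34% and 12.2% of EMT-like cells in the controls and 18% and 21.8% in the knockdowns. Cluster 33 made up 6.74% and 1.32% in the controls and had no cell in the knockdowns. In cluster 1 alone, a subset chosen after seeing the data, the change of Gpam was 0.16 (adjusted p = 0.664). Of the Myofib-like cells, cluster 15 made up 45% and 39.3% in the controls and 16% and 8.16% in the knockdowns. In cluster 4 alone, likewise chosen afterwards, Hsd17b7 changed by 0.54 (adjusted p = 0.0839) and Elovl6 by 0.26 (adjusted p = 0.463).

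**Figure D5:**
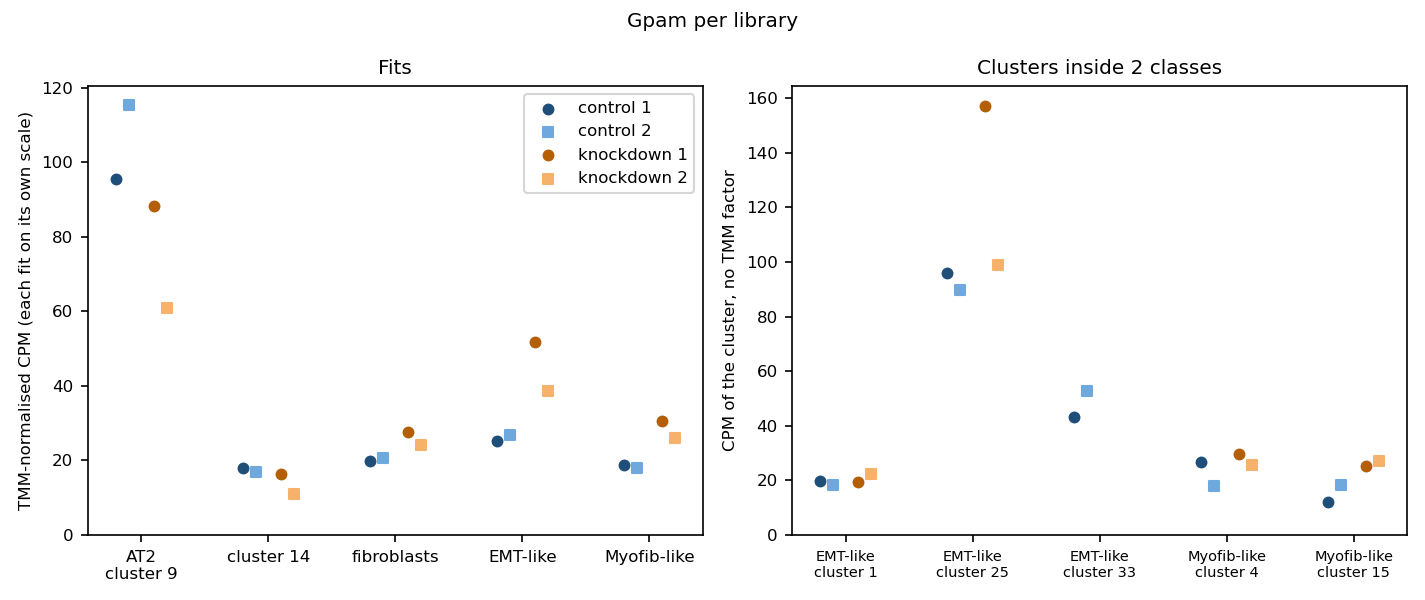
Gpam in each library: on the left TMM-normalised CPM in 5 fits, each on its own scale, and on the right CPM with no TMM factor in single clusters of the EMT-like and Myofib-like classes. Cluster 25 sits at 89.7 to 157, far above cluster 1 at 18.3 to 22.4, and cluster 33 has cells only in the controls.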

How the data were processed

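Single-cell RNA profiles of 2 control and 2 knockdown co-cultures were used. The authors deposited whole-number UMI counts of 45936 cells and 32285 genes, a cell table with class, cluster and the mitochondrial share of UMIs as a percent, and no normalised RNA values were used here. Per the submitters' processing notes, reads were placed on GRCm38 (mm10). The aligner, the counting of intronic and shared reads and any removal of doublets were not given in the sources used here. Intronic counting would raise long genes, so an offset for gene span was tried. Another 54 columns of cell values were not used.

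Counts were summed per library over deposited clusters or classes with at least 50 cells in each library. Clusters 19 and 23 of the AT2 class were left out, since fibroblast markers summed to 8575 and 6318 CPM there beside AT2 markers at 1861 and 36368 CPM, and so was cluster 32 from tests. Knockdown was compared with control by edgeR's quasi-likelihood test (edgeR 4.0.16, limma 3.58.1, R 4.3.3) with TMM normalisation and filterByExpr, with Benjamini-Hochberg adjustment over all genes tested and a threshold of 0.05. Every p not credited to another tool is from it; DESeq2 1.42.0 was an alternative. Values with ± are SE. Class levels and AT2 to fibroblast ratios are on 1 TMM scale over all class sums, and knockdown levels on the scale of their own fit.

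The members and lists were chosen with earlier results of these data known. Values in every library are given for genes called in fibroblasts or AT2 cells and for those 2-fold apart between them in 4 of 4 libraries, for other lipid genes called, and for Yap1 and Wwtr1; further genes were named after their values were seen. In simulated counts for fibroblasts the test recovered 79% of genes changed by 1 on the log2 scale and 95% of those changed by 2, and for cluster 9 it recovered 66% and 97%, over 17481 and 10737 genes. In each simulation 8 unchanged genes were called. All genes were drawn with the same dispersion and without differences in cell makeup, so recovery in the real data may differ. Changes smaller than 1 were not simulated.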

Additional observations from a re-analysis of the deposited data

Results flagged for a closer look

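The change of Gpam with the knockdown differed between AT2 cells and fibroblasts by -0.81 ± 0.17 on the log2 scale (edgeR interaction, adjusted p = 0.000241), because it was negative in cluster 9 and positive in fibroblasts. Both knockdown libraries showed each direction. The change of Chpt1 differed in the same direction, by -0.90 ± 0.17 (edgeR interaction, adjusted p = 2.35e-05), and again both knockdown libraries lay below both controls in cluster 9 and above them in fibroblasts. The edgeR fit in effect pooled the spread between libraries across genes, so both p-values do not reflect the spread of each gene's own libraries. Neither difference was called with DESeq2 (adjusted p = 0.221 for Gpam and 0.148 for Chpt1). That of Gpam was also not called with cells of at most 20% mitochondrial UMIs (edgeR adjusted p = 0.430). The makeup of the fibroblast sum differed between the groups, and its part in both differences was not tested.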

How the results depend on the processing

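With 2 libraries per group the 95% intervals of the members reach 0.79 on the log2 scale in fibroblasts and 0.88 in cluster 9, and sums tested held as few as 82 cells (Myo1f+ Fibroblasts of knockdown 2), with 227 in cluster 9 of the same library. Called members went from 0 to 1 in fibroblasts with an offset for gene span (Gpam), from 0 to 1 in cluster 14 with no filter on low counts (Idi1), and from 3 to 1 over single classes with DESeq2. The 1 member called for a difference between compartments became 0 with DESeq2 and 0 with cells of at most 20% mitochondrial UMIs. Summing clusters 9, 14 and 32, 8 in place of 14 members stood at least 2-fold above fibroblasts and 1 in place of 2 below.

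Leaving out 1 library at a time gave 0 to 3 called members in fibroblasts (Elovl1, Nsdhl and Srebf1 rose without control 2), 0 to 1 in cluster 9 (Gpam fell without knockdown 1), 0 to 1 in cluster 14 (Idi1 rose without control 2), 0 to 4 for the difference (Gpam, Lpcat1, Pcyt1a and Scd1 without knockdown 2), 3 to 11 over single classes (11 without control 2), 14 to 15 members at least 2-fold above fibroblasts and 2 below. Over all genes the calls ranged from 998 (without knockdown 2) to 3666 (without control 2) in fibroblasts around 1860, from 40 to 391 in cluster 9 around 99, from 15 to 140 in cluster 14 around 54, and from 194 to 511 for the difference around 374. DESeq2 called 27, 22 and 69 genes in cluster 9, cluster 14 and the difference, 482 in EMT-like cells (835 by edgeR) and 483 in Myofib-like cells (931 by edgeR). Cells of at most 20% mitochondrial UMIs gave 63, 119 and 133 calls in cluster 9, cluster 14 and the difference, and no filter gave 146 in cluster 14. The cause of these shifts was not tested.

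Control and knockdown libraries share the numbers 1 and 2, but no label says that a number pairs them. Deviations of same-numbered libraries correlated at 0.11 in fibroblasts, 0.14 in cluster 9 and 0.16 in cluster 14, with 2 pairs. With the replicate number as a block, 11 members were called in fibroblasts (Elovl1, Gpam, Hsd17b7, Lpcat1, Nsdhl, Scd1 and Srebf1 higher, Acaca, Acsl3, Pcyt1a and Srebf2 lower) among 5820 genes, 1 in cluster 9 (Gpam, lower, among 400) and 2 in cluster 14 (Ebp and Idi1, higher, among 282); Wwtr1 was then called lower in cluster 9 (-0.55, adjusted p = 0.00793). Of 1347 alternative values for single named genes, 1292 stayed on the same side of the threshold, 27 passed it only under the alternative and 28 lost it. Most of these values belong to results not called in the main fits, which had no call to lose. The 28 losses fell on Gpam, Chpt1, Nr1h3, Stard4, Tm7sf2, Gpat3, Yap1, Hsd17b7 and Elovl6.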
